A study of Schmidtea polychroa with 132 samples.

Results

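The 60 transcripts that were most abundant in yolk of the freshwater planarian Schmidtea polychroa were followed through embryonic stages 1 to 8. They were chosen by their measured level in the yolk libraries. The count of a transcript was divided by its library's total and multiplied by 1000000 (CPM), and the 60 transcripts with the highest median CPM over 4 yolk libraries were taken. The deposited table held 15124 transcripts, of which 15121 were ranked and 3 were left out of every total and fit. Yolk values are therefore given only as a description, and the yolk libraries entered no test. The files give no gene name beside an ID. The members are given by ID, no function is given for any of them, and the yolk label could not be checked against marker genes.

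Planarian eggs are ectolecithal, which means that the egg cell itself carries little yolk. Separate yolk cells made by the parent are packed into the capsule together with the embryos, and early embryos develop among them. A temporary embryonic pharynx then swallows yolk cells into a gut cavity, where they are used as food while the definitive body is built. A library made from a whole embryo can therefore hold RNA of yolk cells beside that of the embryo's own cells.

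Capsules of a laboratory population were kept at 20 °C and opened over 15 days of development, and the RNA of every staged embryo was read in a library of its own by CEL-Seq, which barcodes polyadenylated RNA and reads transcripts at their 3′ end. In order of stage, from 1 to 8, the labels gave 6, 29, 22, 10, 13, 16, 16 and 15 libraries, with 4 more labelled yolk and 1 labelled protist, 132 in all. No genotype or treatment set the groups apart, the tissue field reads single embryo for the yolk and protist libraries too, and neither the capsule of origin nor what a yolk library was made from is given, so p-values measure the spread between single libraries. All libraries were treated with duplex-specific nuclease, an enzyme used to deplete abundant sequences, and its part in the levels of these abundant transcripts was not tested.

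Transcript totals ranged from 8530 to 1620829 per library with a median of 336516.5, and from 76822 to 524497 in yolk. A library with less than 5% of the median total was left out of the tests, which removed 7 libraries and left 3 of stage 1, 27 of stage 2 and 20 of stage 3. The proportions among 26 of 92 synthetic spike-in RNAs were used to cluster the libraries into 4 sets, called A to D here and absent from the labels. The number of sets was a setting of the clustering. Yolk, stages 1 to 3 and the protist library lay in sets A and B, stages 4 to 6 in set C, stage 7 in set D, and stage 8 in set D except for 1 library in set C. The set thus changed together with the stage between stages 3 and 4, and again between stages 6 and 7, and stage and set cannot be told apart there. The 3 libraries left for stage 1 were all of set B. Stage 4 replicates 3 and 10 held 55.9% and 31.5% of their counts in transcripts high in the protist library, and stage 8 replicate 5 was far below the others of its stage in some members. Shares and counts of calls are also given without these libraries.

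In yolk the 60 members together held 40.3%, 38.1%, 47.2% and 53.7% of the transcript counts in replicates 1 to 4. The first 10 members alone held a median of 26.7%. The levels were steep at the top: FW_v1_tr_02140 stood at 29350, 22080, 38450 and 84610 CPM in the 4 yolk libraries. FW_v1_tr_14598 stood at 24880, 21200, 46710 and 42650 CPM there, and FW_v1_tr_03132 at 20200, 9570, 48020 and 45560 CPM. For all 3, replicates 3 and 4 were above replicates 1 and 2, so the yolk libraries were not alike in the members that lead the list. At the other end, the medians of FW_v1_tr_00715 (rank 59) and FW_v1_tr_12504 (rank 60) were 1232 and 1226 CPM. Just outside, FW_v1_tr_02281 and FW_v1_tr_15061 had medians of 1209 and 1205 CPM. FW_v1_tr_12504 ranged from 1144 to 1723 CPM over the yolk libraries and FW_v1_tr_15061 from 451.9 to 2306 CPM, so the last places in the list were set by less than the spread between libraries. Without any 1 of the yolk libraries, 53 to 56 of the 60 members would have been chosen again.

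Some members are not separate measurements. Over all libraries, 5 families with 11 members had counts that were equal within counting noise (no more than 10% of libraries differed at a binomial p under 0.05). Such a family may hold transcript models that share reads. The largest, named here after its values were seen, was FW_v1_tr_12643, FW_v1_tr_12644 and FW_v1_tr_01057, with 280145, 280418 and 279963 counts over 132 libraries. The others were pairs, among them FW_v1_tr_04119 with FW_v1_tr_07947. With each family counted once, 54 members were left.

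The members' share of counts was lower at later stages, with steps after stage 3 and after stage 6, as the plot of shares by library shows. The 60 members held a median of 37.7% of counts in stage 1 (lowest 17.0%, highest 59.4%), 32.1% in stage 2 (9.44% to 54.4%) and 32.7% in stage 3 (12.6% to 44.4%). The median was 9.07% in stage 4 (5.97% to 13.3%), 9.12% in stage 5 (6.25% to 19.0%) and 8.54% in stage 6 (6.43% to 13.5%). In stages 7 and 8 the medians were 5.63% (5.04% to 6.49%) and 5.76% (5.41% to 6.95%). The libraries of stages 1 to 3 spread over most of the range between stage 4 and yolk, while those of stages 7 and 8 lay close together. Neighbouring groups overlapped at each step: the lowest stage 3 library was below the highest of stage 4, and the lowest stage 6 library was below the highest of stage 7. Without stage 4 replicates 3 and 10 the median of stage 4 was 9.95% (7.83% to 13.3%), and without stage 8 replicate 5 that of stage 8 was 5.76%. A share falls when a list's own counts fall or when other counts grow, and the spike-in set changed at both steps. In bulk RNA of this kind, fewer yolk cells, less of a transcript per cell and more of other RNA cannot be told apart.

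**Figure D1:**
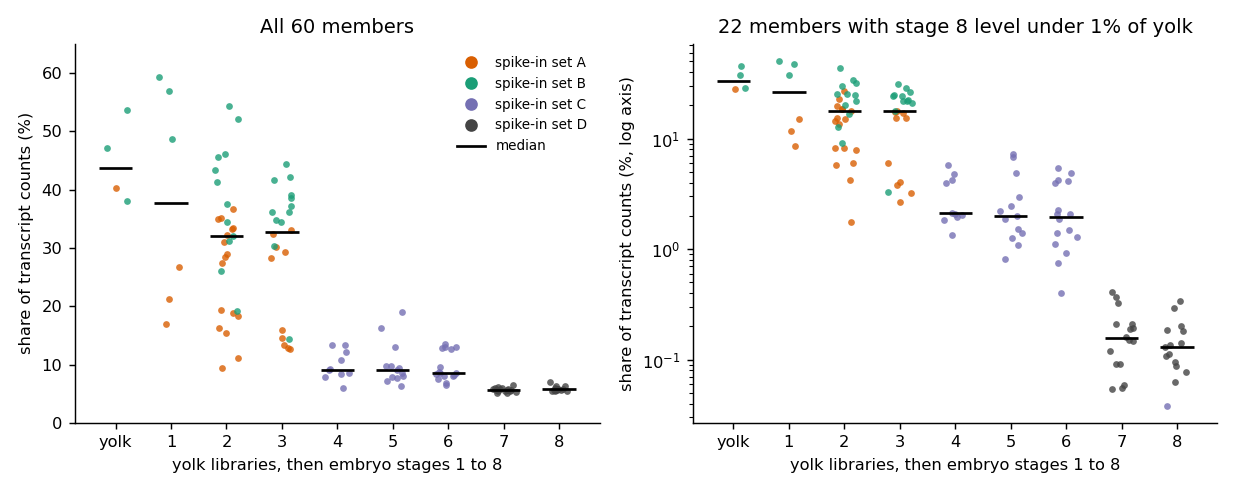
Share of transcript counts (%) held by all 60 members (left, linear axis) and by the 22 members whose stage 8 level was under 1% of yolk (right, log axis), in yolk and stages 1 to 8. Each point is 1 library, coloured by spike-in set, and the black lines are medians; for all 60 members these are 43.7% in yolk, 9.07% in stage 4 and 5.76% in stage 8.

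Part of the spread in stages 1 to 3 went with the spike-in set. In stage 1 the 3 libraries of set A held 17.0%, 21.2% and 26.7% in members and the 3 of set B 48.7%, 57.0% and 59.4%, with no overlap. The medians of sets A and B were 28.4% and 39.4% in stage 2 and 22.1% and 36.7% in stage 3, where the sets overlapped. Of the stage 1 libraries in set A, none passed the depth minimum, so depth moved with the set there. Within stage 3 of set A the share went with depth. Replicates 4, 6, 7, 8 and 9 had totals of 124391 to 320672 and held 12.6% to 15.9% in members. Replicates 1, 2, 3, 5 and 10 had totals of 14491 to 80880 and held 28.4% to 33.0%. In set B, stage 3 replicate 15 had a total of 1031677 and held 14.4%, while replicate 22 had 806011 and held 34.8%. The part of depth and set in these shares was not tested.

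The members differed in how much was left in stage 8, and the plot of levels against yolk divides them by this. Relative to their yolk median, 22 members stood at under 1% in stage 8, 8 at 1% to under 10%, 15 at 10% to under 50% and 15 at 50% or more. These classes were cut from yolk and stage 8 values after they were known and are a description. The class under 1% took 14 of the first 15 ranks in yolk, and a median of 33.2% of yolk counts. Its median share was 17.7% in stage 3, 2.11% and 1.97% in stages 4 and 6, and 0.156% and 0.130% in stages 7 and 8. The class at 50% or more held 4.40% of yolk counts, and 6.09%, 4.85% and 4.47% of those of stages 2, 4 and 8. Without stage 4 replicates 3 and 10 the stage 4 medians of these classes were 3.05% and 4.90%, and without stage 8 replicate 5 all 60 members kept their class. In yolk most of the members' counts belonged to the first of these classes, and in stage 8 most belonged to the second.

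**Figure D2:**
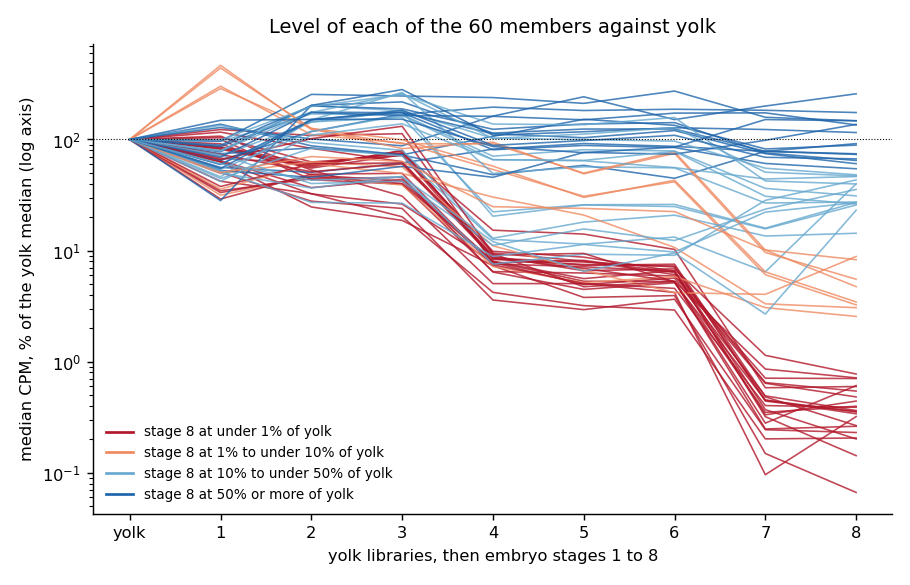
Median CPM of each of the 60 members in stages 1 to 8 as a percentage of its median in yolk (log axis), 1 line per member, coloured by its stage 8 class, with the dotted line at the yolk level. The 22 members of the class under 1% (dark red) lie at 3.59% to 15.3% in stage 4 and 0.0666% to 0.775% in stage 8. The 15 of the class at 50% or more (dark blue) lie on both sides of the dotted line, at 45.6% to 238.3% in stage 4 and 54.5% to 257.6% in stage 8.

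The median level of the 22 members of the lowest class was 70.5%, 52.1% and 54.9% of yolk in stages 1, 2 and 3. It was 8.01%, 6.44% and 5.78% in stages 4, 5 and 6, and 0.422% and 0.360% in stages 7 and 8. Single members ranged from 29.1% to 122.8% in stage 1, 3.59% to 15.3% in stage 4, 2.92% to 10.2% in stage 6 and 0.0666% to 0.775% in stage 8, the range that defines the class. None of the 22 was under 1% of yolk in stages 4 to 6, and 21 were in stage 7. Over all 60 members, Spearman's rho between stage medians and yolk medians went from 0.82 in stage 1 to 0.29 in stage 4 and -0.29 in stage 8. Within the 22 members of the lowest class alone, rho was 0.92, 0.93 and 0.87 in the same stages. These are correlations across transcripts, which are not independent replicates, and the yolk medians also chose the members, so they are a description.

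The low levels of stages 7 and 8 can be set beside the protist library, the 1 library not labelled as an embryo or yolk. In it the same 22 transcripts had 122 counts in all, at 0% to 2.76% of their yolk median with a median of 0.217%. That library held 0.0705% of its counts in the 22 transcripts, and the stage 8 libraries 0.0384% to 0.336%. The protist value lay inside the range of the stage 8 libraries. The source of counts at this level was not tested. FW_v1_tr_12478 had the lowest stage 8 level against yolk, with 0 to 112.7 CPM and a median of 6.25 CPM in 15 libraries against 3487 to 15990 CPM in yolk. It had counts in 12 of the 15 stage 8 libraries, 114 counts in all. FW_v1_tr_05865 followed at 0 to 60.4 CPM with a median of 16.8 CPM in stage 8, with counts in 13 of 15 libraries, against 8837 to 19400 CPM in yolk. Both were far below every yolk library in every stage 8 library. They were named for the lowest stage 8 levels against yolk, so this gap follows from the choice and is a description.

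At the other end, FW_v1_tr_13352 stood at 5155, 2192, 2297 and 1615 CPM in yolk and at a median of 5782 CPM in stage 8 (1710 to 7771 CPM), which was 258% of the yolk median. FW_v1_tr_01354 stood at 4764, 3477, 1837 and 2864 CPM in yolk and at a median of 5542 CPM in stage 8 (4375 to 7395 CPM), or 175%. In both, the ranges of yolk and stage 8 overlapped. Both are among 8 members that were in the 60 highest of yolk and of each of stages 1 to 8. The other 6, chosen after their values were seen, were FW_v1_tr_00413, FW_v1_tr_13310, FW_v1_tr_01992, FW_v1_tr_09531, FW_v1_tr_03936 and FW_v1_tr_07303. Of the 60 members, 43, 40 and 42 were among the 60 highest of stages 1, 2 and 3, 20 among those of each of stages 4, 5 and 6 and 11 among those of each of stages 7 and 8. All 11 in stages 7 and 8 were of the class at 50% or more, which was itself cut by a high stage 8 level. None was among the 60 highest of the protist library.

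The members were also abundant in early embryos. Among the 8 stages alone, the highest median lay in stages 1 to 3 for 53 members, in stages 4 to 6 for 4 and in stage 8 for 3. The lowest lay in stage 7 or 8 for 42. Of the 53, 25 had their highest median in stage 1, where only 3 of 6 libraries passed the depth minimum. The same counts over all transcripts were not computed. In stages 1, 2 and 3, 13, 26 and 21 members had a median at or above that of yolk. The median over stages 1 to 3, which the choice of members did not use, served as another reference: in stage 8, 45 members were below 50% of it, 28 below 10% and 15 below 1%, and against yolk the counts were 45, 30 and 22.

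Another 4 members stood apart by their level in the protist library and were singled out after this was seen. FW_v1_tr_15080, FW_v1_tr_00170, FW_v1_tr_12633 and FW_v1_tr_12160 had 1965, 2196, 2179 and 2063 CPM there, against 0 to 86.7 CPM with a median of 20.2 CPM for the other 56 members. They form 2 of the equal-count pairs. Their summed share was 4.67% to 5.08% in the stage 1 libraries of set A and 1.00% to 1.43% in those of set B, and its median in stage 3 was 2.45% in set A and 0.647% in set B. In yolk it was 1.61% in the library of set A and 0.445% to 1.15% in the 3 of set B. In stage 8 its median was 0.0339%. These 4 members were thus higher in set A, where the protist library also lies, and lowest at the end of the course, and the part of either in their place among the 60 was not tested. By contrast, no member was among 115 transcripts high in that library alone (at least 100 CPM there and 10 times every other group's median).

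Stage comparisons were made with edgeR's quasi-likelihood test over all transcripts that passed its filter on low counts. For the tests, levels were scaled by TMM, which sets library sizes by the bulk of transcripts. A call means a Benjamini-Hochberg adjusted p under 0.05 over all transcripts tested. The CPM ranges and medians beside them use library totals without TMM, so they need not give the same change. Changes are log2 differences, later minus earlier stage. All 60 members passed the filter in each comparison except stage 8 against stage 7, where 56 did. The plot of changes shows them side by side: calls were many at the steps into stages 4 and 7, and few in between.

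**Figure D3:**
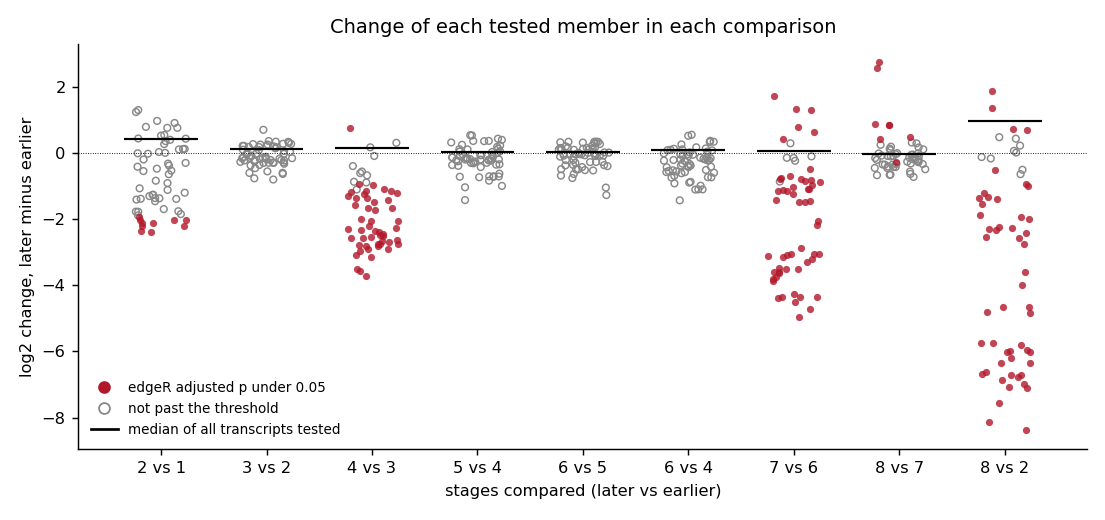
Log2 change (later minus earlier stage) of each tested member in the 9 comparisons. Filled red points passed edgeR's adjusted p of 0.05, open points did not, and black lines give the median of all transcripts tested; the median of the members was -2.06 at the step into stage 4 and -1.47 at the step into stage 7, below the lines at 0.16 and 0.0706.

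From stage 1 to stage 2, 10 members fell and none rose, where 0.66% of 4394 transcripts tested were called lower and 0% higher (29 and 0, against 63 lower and 161 higher with DESeq2). The median change of the members was -0.74 and that of all transcripts 0.42. Of the 10, 9 belong to the class under 1%. The stage 1 libraries tested had 69950, 53070 and 69530 CPM of FW_v1_tr_02140, and the 27 of stage 2 had 1294 to 51630 CPM with a median of 15420 CPM, so the groups did not overlap. Its log2 change was -2.39 (SE 0.52, edgeR's Benjamini-Hochberg adjusted p = 0.0114). FW_v1_tr_14085 had 9432, 8933 and 11480 CPM in stage 1 against 175.4 to 7874 CPM with a median of 2993 CPM in stage 2, again without overlap, and a change of -2.37 (SE 0.45, edgeR adjusted p = 0.0103). These calls rest on the 3 deep stage 1 libraries of set B. The other 3 stage 1 libraries, of set A, had 5033, 10890 and 14770 CPM of FW_v1_tr_02140 and 749.6, 2473 and 2931 CPM of FW_v1_tr_14085, within the range of stage 2. With all 6 stage 1 libraries no member was called. Within set B alone 4 were called lower, 3 of them among the 10. Within set A alone, with no depth minimum, 4 of the 10 changed sign and none of the 10 was called lower. Leaving out stage 1 replicate 4, 5 or 6 left 1, 5 and 0 members called lower. Library totals with no factors moved the median of all transcripts by 0.49 on the log2 scale, and no member was then called.

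From stage 2 to stage 3 edgeR called no member, where 1.26% of 1982 transcripts were called, 0.959% lower and 0.303% higher (19 and 6, against 21 and 3 with RLE size factors and 19 and 3 with library totals). At an unadjusted p under 0.05 there were 5 members, and DESeq2 called none. The members' changes ran from -0.80 to 0.70 with a median of -0.14, beside 0.13 for all transcripts.

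From stage 3 to stage 4, 49 members fell, 1 rose and 10 did not pass the test. Of 4060 transcripts tested 38.6% were called, 24.2% lower and 14.4% higher. Which direction prevailed among all transcripts depended on the scaling: 984 were lower and 585 higher with TMM, 705 and 1490 with DESeq2, 856 and 821 with library totals, and 1158 and 351 with the members left out of the scaling. With RLE size factors, too, more were higher (1373) than lower. The members' median change was -2.06 beside 0.16 for all transcripts. All 22 members of the class under 1% fell, with changes of -3.73 to -2.01, and so they did under all 11 settings tried, but the class was cut by low stage 8 levels and its calls are a description. All 15 of the class at 10% to under 50% fell too, as did 5 of 8 at 1% to under 10% and 7 of 15 at 50% or more. Over the settings these 3 counts ranged from 10 to 15, from 3 to 8 and from 2 to 10. With each equal-count family counted once, 44 of 54 fell.

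The largest fall was that of FW_v1_tr_07605, which had 1410 to 30920 CPM with a median of 14020 CPM in 20 stage 3 libraries and 505.4 to 3920 CPM with a median of 875.1 CPM in 10 of stage 4. The ranges overlapped, but all 10 stage 4 libraries were below the stage 3 median. Its log2 change was -3.73 (SE 0.53, edgeR adjusted p = 5.73e-06). FW_v1_tr_04119, one of an equal-count pair, had 330.2 to 24620 CPM with a median of 8334 CPM in stage 3 and 458.6 to 1409 CPM with a median of 750.6 CPM in stage 4. The lowest stage 3 library was below every stage 4 library, yet all 10 of stage 4 were below the stage 3 median, and the change was -3.56 (SE 0.53, edgeR adjusted p = 1.13e-05). FW_v1_tr_13352, the 1 member that rose, had 530.1 to 4325 CPM with a median of 1862 CPM in stage 3 and 1516 to 5632 CPM with a median of 3644 CPM in stage 4. Of the stage 4 libraries 9 were above the stage 3 median, and the change was 0.74 (SE 0.27, edgeR adjusted p = 0.0296). This call was lost when scaling left the 60 members out (edgeR adjusted p = 0.174) and with a stricter filter (edgeR adjusted p = 0.145). The 3 leading yolk transcripts changed by -2.90 (FW_v1_tr_02140), -2.62 (FW_v1_tr_14598) and -3.07 (FW_v1_tr_03132), each past edgeR's threshold.

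Another scaling moved the median of all transcripts in this comparison by up to 0.65 on the log2 scale (DESeq2), and by 0.64 with RLE size factors. No called member changed sign under any setting, and 38 of the 50 calls held with RLE and 44 with DESeq2. Without the 2 stage 4 libraries rich in protist transcripts, 48 of the 50 calls held. The stage 4 medians of FW_v1_tr_07605, FW_v1_tr_04119 and FW_v1_tr_13352 were then 875.1, 786.8 and 3644 CPM.

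Within stages 4 to 6, which share spike-in set C, edgeR called no member. From stage 4 to stage 5 it called 0% of 6300 transcripts, with 872 at an unadjusted p under 0.05, among them 6 members. DESeq2 called 82 lower and 97 higher there, 1 of them a member that was higher, FW_v1_tr_01555. From stage 5 to stage 6 edgeR again called 0% of 6279, with 316 unadjusted, among them 4 members, and DESeq2 called 2 lower and 1 higher but no member. Over the longer step from stage 4 to stage 6, 1.53% of 6609 transcripts were called by edgeR, 1.04% lower and 0.484% higher. None of these was a member. Without stage 4 replicates 3 and 10 the calls among all transcripts went from 69 lower and 32 higher to 10 and 1, again with no member, and from stage 4 to stage 5 there were still 0. At an unadjusted p under 0.05 there were 9 members, and DESeq2 called 1 lower, FW_v1_tr_08852, and 1 higher, FW_v1_tr_01555. Both are named because the counts are small. The members' median change from stage 4 to stage 6 was -0.23 beside 0.09 for all transcripts, with a range of -1.43 to 0.55. That none passed the test does not show that the levels of stages 4 to 6 were alike.

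From stage 6 to stage 7, 48 members fell, 6 rose and 6 did not pass the test. Of 7700 transcripts 50.1% were called, 23.5% lower and 26.6% higher (1812 and 2048, against 1508 and 2900 with DESeq2 and 1380 and 2642 with RLE size factors). The members' median change was -1.47 beside 0.07 for all transcripts. All 22 members of the class under 1% fell again, with changes of -4.97 to -2.87, and did so under all 8 settings tried. They stood at 2.92% to 10.2% of yolk in stage 6 and were chosen for a level under 1% in stage 8, so a fall over this span was close to fixed by the choice, and no support is drawn from it. Their median change was -3.69 here and -2.72 at the step into stage 4, and the difference between the steps was not tested. Falls in the classes at 1% to under 10%, 10% to under 50% and 50% or more numbered 7 of 8, 12 of 15 and 7 of 15, with ranges over the settings of 7 to 8, 10 to 12 and 4 to 7. These classes too were cut with stage 8 values.

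FW_v1_tr_05865 had 141.5 to 2774 CPM with a median of 768.9 CPM in 16 stage 6 libraries and 4.32 to 110.8 CPM with a median of 37.7 CPM in 16 of stage 7. The groups did not overlap, and the change was -4.97 (SE 0.42, edgeR adjusted p = 6.28e-12). FW_v1_tr_12478 had 57.7 to 1244 CPM with a median of 369.2 CPM in stage 6 and 3.29 to 50.8 CPM with a median of 14.0 CPM in stage 7. These groups did not overlap either, and the change was -4.70 (SE 0.41, edgeR adjusted p = 1.43e-12). Against these falls, FW_v1_tr_00218 rose from 87.8 to 185.8 CPM with a median of 134.3 CPM in stage 6 to between 298.4 and 704.8 CPM with a median of 419.1 CPM in stage 7. Every stage 7 library was above every stage 6 library, and the change was 1.73 (SE 0.16, edgeR adjusted p = 1.46e-11). FW_v1_tr_07262 had 0 to 325.6 CPM with a median of 136.8 CPM in stage 6 and 167.6 to 938.5 CPM with a median of 312.8 CPM in stage 7. The ranges overlapped, all 16 stage 7 libraries were above the stage 6 median, and the change was 1.33 (SE 0.28, edgeR adjusted p = 1.37e-04). RLE and DESeq2 moved the median of all transcripts by 0.26 on the log2 scale. No called member changed sign under any of the settings tried, and 48 to 54 of the 54 calls held.

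Read over both steps, which share no libraries, 43 members fell at each. Of all transcripts tested, 24.2% were lower at the step into stage 4 and 23.5% at the step into stage 7. The share lower at both was not computed. The 43 include all 22 of the class under 1%, which was cut with stage 8 values, and the spike-in set changed at both steps. A further 4, named after this was seen, fell at the step into stage 4 and rose at the step into stage 7: FW_v1_tr_13878, FW_v1_tr_00218, FW_v1_tr_07262 and FW_v1_tr_09051. FW_v1_tr_00218 had medians of 688.9 CPM in stage 3, 111.8 and 134.3 CPM in stages 4 and 6, and 419.1 and 640.6 CPM in stages 7 and 8, the last of which was 43.3% of its yolk median. FW_v1_tr_09051 went from 1898 CPM in stage 3 to 1078 CPM in stage 4 and 1886 CPM in stage 7. Its fall from stage 3 to stage 4 was not called with RLE size factors (edgeR adjusted p = 0.133). Members that did not pass the test at either step were FW_v1_tr_13310, FW_v1_tr_01354 and FW_v1_tr_00715. All are of the class at 50% or more, which was cut by a high stage 8 level.

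**Figure D4:**
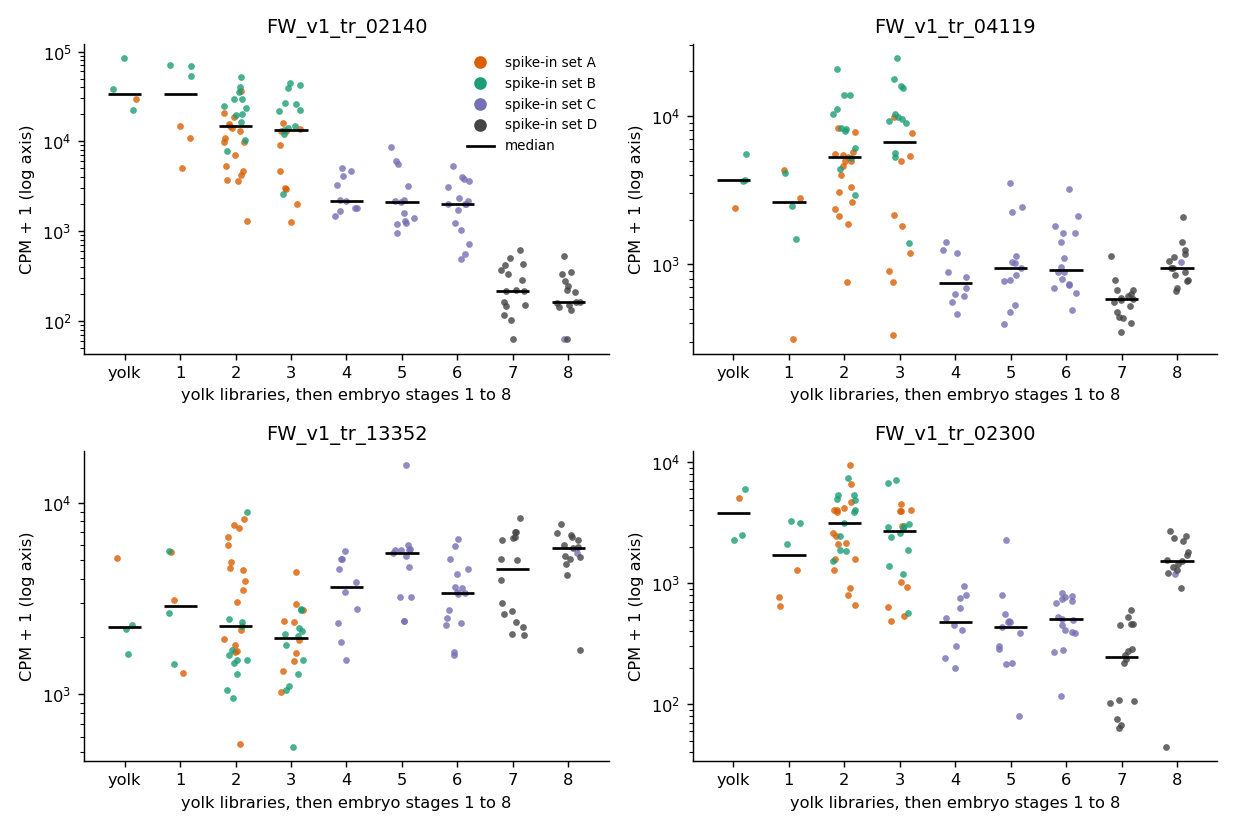
CPM plus 1 (log axis) of 4 members in every library of yolk and stages 1 to 8, coloured by spike-in set, with the group median as a line. FW_v1_tr_02140 falls at stages 4 and 7, FW_v1_tr_04119 mainly at stage 4, FW_v1_tr_13352 ends above its yolk median at 258%, and FW_v1_tr_02300 is low in stage 7 and higher in 14 of the 15 stage 8 libraries.

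From stage 7 to stage 8, 7 members rose and 1 fell of 56 tested, where 6.13% of 8892 transcripts were called, 1.74% lower and 4.39% higher. The members' median change was -0.14 beside -0.03 for all transcripts. The 4 members not tested, FW_v1_tr_13843, FW_v1_tr_11865, FW_v1_tr_01881 and FW_v1_tr_12478, belong to the class under 1%, which was cut with the same stage 8 libraries, and none of the other 18 of that class was called. FW_v1_tr_12504 had 0 to 225.6 CPM with a median of 32.9 CPM in 16 stage 7 libraries and 43.6 to 553.9 CPM with a median of 283.0 CPM in 15 of stage 8. The ranges overlapped, all 15 stage 8 libraries were above the stage 7 median, and the change was 2.74 (SE 0.41, edgeR adjusted p = 3.85e-05). FW_v1_tr_02300 had 62.4 to 594.1 CPM with a median of 244.9 CPM in stage 7 and 43.6 to 2700 CPM with a median of 1515 CPM in stage 8. Stage 8 replicate 5 was lowest in both members and the other 14 stage 8 libraries were all above the stage 7 range of FW_v1_tr_02300, and its change was 2.58 (SE 0.37, edgeR adjusted p = 3.55e-05).

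FW_v1_tr_00715, the 1 member that fell, had 1768 to 2716 CPM with a median of 2139 CPM in stage 7 and 1491 to 2165 CPM with a median of 1666 CPM in stage 8. Of the stage 8 libraries 14 were below the stage 7 median, and the change was -0.26 (SE 0.08, edgeR adjusted p = 0.0470), but it turned to 0.82 when spike-in counts were used as library sizes. That scaling moved the median of all transcripts by 1.08 on the log2 scale, with 6 of all transcripts lower and 6144 higher, and 38 members were then higher and none lower. The call was also lost with RLE size factors, scaling without the members, the stricter filter, set D alone and one fit over stages 1 to 8, with edgeR adjusted p of 0.0536 to 1.0. The other rises were those of FW_v1_tr_04119 and FW_v1_tr_07947 (an equal-count pair), FW_v1_tr_01951, FW_v1_tr_01555 and FW_v1_tr_00218, with changes of 0.42 to 0.89. In one fit over stages 1 to 8, these 5 were not called and only FW_v1_tr_12504 and FW_v1_tr_02300 of the 7 still were. Without stage 8 replicate 5, all 8 calls held.

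Over the whole course, from stage 2 to stage 8, 47 members fell and 4 rose, where 71.4% of 4947 transcripts were called, 21.1% lower and 50.3% higher. The members' median change was -2.56 and that of all transcripts 0.98. The classes were cut with stage 8 values, so their calls in this comparison are not read further. FW_v1_tr_07605 had 1044 to 80640 CPM with a median of 12820 CPM in 27 stage 2 libraries and 0 to 120.2 CPM with a median of 50.0 CPM in 15 of stage 8. The groups did not overlap, and the change was -8.39 (SE 0.68, edgeR adjusted p = 2.23e-15). FW_v1_tr_05865 had 910.3 to 24660 CPM in stage 2 and 0 to 60.4 CPM in stage 8, also without overlap, and changed by -8.14 (SE 0.51, edgeR adjusted p = 1.45e-20).

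Rises over the same span were smaller. FW_v1_tr_01555 had 102.4 to 1900 CPM with a median of 706.2 CPM in stage 2 and 1332 to 2440 CPM with a median of 2043 CPM in stage 8. All 15 stage 8 libraries were above the stage 2 median, and the change was 1.87 (SE 0.23, edgeR adjusted p = 3.97e-10). FW_v1_tr_13352 had 548.6 to 8936 CPM with a median of 2166 CPM in stage 2 and 1710 to 7771 CPM with a median of 5782 CPM in stage 8. Here 14 of 15 stage 8 libraries were above the stage 2 median, and the change was 1.36 (SE 0.25, edgeR adjusted p = 3.33e-06). The other 2 called higher, FW_v1_tr_13310 (0.72) and FW_v1_tr_01354 (0.69), were not called under 5 settings: library totals, scaling without the members, no filter, the stricter filter and a depth minimum of 25% of the median total. There FW_v1_tr_13310 changed by 0.09 to 0.35 (edgeR adjusted p = 0.169 to 0.746) and FW_v1_tr_01354 by -0.03 to 0.34 (edgeR adjusted p = 0.237 to 0.908), with the negative value at the 25% minimum. The fall of FW_v1_tr_07303 (-0.52) turned to 0.12 with DESeq2 and 0.11 with RLE size factors. Those scalings moved the median of all transcripts by 0.65 and 0.66. The other 49 of the 51 members called kept their sign under all settings tried, and all 51 calls held without stage 8 replicate 5.

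A share says nothing about amounts of RNA, so the members' counts were also set against the spike-in counts of the same library, within a set only. In set B the 60 members had a median of 24.2 counts per spike-in count in yolk, and 12.7, 3.98 and 3.58 in stages 1, 2 and 3. All transcripts together were lower there too, with 53.0 in yolk and 22.2, 10.7 and 10.6 in these stages. In set A the order of the stages was the other way, with 0.00970, 0.0473 and 0.0648 for the members, and 2.37 in the 1 yolk library. All transcripts together ran the same way in set A, at 0.0539, 0.178 and 0.328 in stages 1, 2 and 3, so no course of the early stages can be read from these ratios. In set C the medians of stages 4, 5 and 6 were 0.862, 1.03 and 0.790. The libraries of these 3 stages overlapped, from 0.197 to 2.07. In set D the median was 1.71 in stage 7 and 3.53 in stage 8, while all transcripts together went from 31.3 to 62.2. The 22 members of the class under 1% had medians of 0.0377 in stage 7 and 0.0811 in stage 8. The stage 7 and stage 8 libraries overlapped, and both lists had the higher median in stage 8.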

How the data were processed

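Single embryos, yolk and 1 protist sample were measured by CEL-Seq. The authors deposited whole-number read counts per transcript, not normalized, with counts of 92 spike-ins and 5 HTSeq counters. The submitters' processing notes name CASAVA 1.8, Bowtie2 2.1.0 and HTSeq 0.5.4p3; the build named there is of Drosophila and does not match these transcript IDs, so no coordinates are given. The strand setting and any use of molecular identifiers are not given in the sources used here. Unaligned reads made up 63.6% of all reads and those outside any feature 2.56%, and both stayed out of totals. A deposited list of barcodes is not tied to libraries and was not used.

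Each comparison was fitted to the libraries of its 2 stages with edgeR 4.0.16 in R 4.3.3 (TMM factors, filterByExpr by group, robust quasi-likelihood F test, two-sided, Benjamini-Hochberg over all transcripts tested). The procedure was tested on simulated data with as many rises as falls among randomly drawn transcripts. Such data do not cover a one-sided shift among the most abundant transcripts. Standard errors were derived from the change and its F statistic. Spike-in sets came from Ward clustering of 26 spike-ins into 4 clusters. Named transcripts were the first 3 of the list, ranks 59 to 62, up to 2 that rose and 2 that fell per comparison (by size of change, with a mean of at least 10 CPM in the higher group), and the 2 highest and 2 lowest in stage 8 against yolk; others are said to have been named after their values were seen, or are named to spell out a small count. Members, lists and tests were chosen with earlier results of these data known. Alternatives were DESeq2 1.42.0, other scalings, filters, depth minimums and libraries; those on the protist-rich stage 4 libraries, on sets without a depth minimum and on stage 8 replicate 5 were chosen after seeing the data. Intervals over libraries show their spread only, and low counts in shallow libraries are imprecise.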

Additional observations from a re-analysis of the deposited data

Results flagged for a closer look

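Of 66 groups of 4 to 10 libraries examined, 4 held a library far from the others. The limit used is one that about 1 in 20 groups of independent, normally distributed values would pass. The groups here share libraries and members, so that rate need not hold. Stage 4 replicate 3 held 2.20% of its counts in the 15 members at 50% or more of yolk in stage 8, against 4.39% to 5.82% in the other 9 stage 4 libraries. The same library held 55.9% of its counts in transcripts high in the protist library. Stage 4 replicate 8 had 3920 CPM of FW_v1_tr_07605 against 505.4 to 1534 CPM in the others, and 751.1 CPM of FW_v1_tr_12504 against 21.5 to 340.7 CPM. Yolk replicate 2 had 1723 CPM of FW_v1_tr_12504 against 1144 to 1240 CPM in the other yolk libraries. The protist library, which entered no comparison, held 0.984% of its counts in the 60 members, of which 0.840% lay in FW_v1_tr_15080, FW_v1_tr_00170, FW_v1_tr_12633 and FW_v1_tr_12160.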

How the results depend on the processing

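The calls from stage 1 to stage 2 depended most on the choices: instead of 10 members lower, there were 0 with library totals and no factors, 0 with no depth minimum, 0 with a depth minimum of 25% of the median, 1 with a stricter filter (10 or more counts in 50% of a group's libraries), 2 with the spike-in set as a term, 4 in set B alone, 20 in one fit over stages 1 to 8, and 0 both with the set as a term and in set A alone when no depth minimum was set. Leaving out stage 1 libraries in turn gave 0 (without replicate 6), 1 (replicate 4) and 5 (replicate 5). Members higher were then 1 with DESeq2, 4 with the set as a term and no depth minimum, and 1 in set A alone, where FW_v1_tr_14085 changed by 0.17. From stage 2 to stage 3, the set as a term gave 1 lower with and without the depth minimum, and one fit gave 2 higher. From stage 3 to stage 4, members higher numbered 4 with DESeq2, 4 with RLE, 2 with the 25% minimum, and 0 with the members left out of the scaling or the stricter filter. DESeq2 gave 1 higher from stage 4 to stage 5, and 1 lower and 1 higher from stage 4 to stage 6. From stage 7 to stage 8, members lower numbered 2 with DESeq2, with library totals or without stage 8 replicate 5, 3 with no filter, and 0 under RLE, scaling without the members, the stricter filter, one fit, spike-in sizes or set D alone. Members higher were 2 in one fit and 38 with spike-in sizes, where FW_v1_tr_00715 changed by 0.82. From stage 2 to stage 8, members higher were 9 with DESeq2, 9 with RLE, and 2 with library totals, scaling without the members, no filter, the stricter filter or the 25% minimum. The median share in stage 1 was 57% without libraries under the depth minimum. In these cases the cause was not tested. Other counts called over all 60 members stayed within 1.5 times, and other median shares of the 60 within 1 SD, of those reported, while counts within the stage 8 classes and among all transcripts moved more. The depth minimums gave no value where they left the same libraries, and set A alone could not be fitted for stage 1 with the minimum, since no such library passed. No paired analysis was possible because the replicate numbers follow the order of deposition and the labels share none. Depth limits stage 1 most, with 8530 counts in its shallowest library.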
